A study of Mus musculus with 4 samples.

Results

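The Zic genes encode transcription factors with zinc fingers of the same kind as those of the Gli proteins. The genes described here are Zic1, Zic2, Zic4 and Zic5, taken from the deposited count table by their symbols: 4 genes of the 25239 listed. RNA was sequenced from hindlimb bud cells of FVB mouse embryos at embryonic day 11.5. All embryos carried the H11 reporter hsp68-hZRS(404G>A)-mCherry on a background labelled wild-type: a heat shock promoter and a human ZRS enhancer with the 404G>A base change, placed at the H11 safe-harbour site, drive mCherry, a red fluorescent reporter protein. The ZRS is the enhancer through which Shh is switched on in limb buds. The groups were anterior cells sorted as positive for mCherry (2 libraries) and central cells sorted as negative (2 libraries). Position in the bud and reporter state differ together between the groups and cannot be told apart. How many embryos were pooled is not given, so p-values measure the spread between these libraries, which may be technical.

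Zic proteins bind DNA through a row of zinc fingers and can act with Gli proteins, the transcription factors of the hedgehog pathway. They are best known from the dorsal neural tube and the somites, and some are also made in limb bud mesenchyme. The genes lie in head-to-head pairs that arose by duplication. On chromosome 9, Zic1 (minus strand) and Zic4 (plus strand) start close together, and on chromosome 14 Zic5 (minus strand) and Zic2 (plus strand) do.

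In the GENCODE M21 annotation of GRCm38 (mm10, the build named in the submitters' processing notes), Zic1 spans chr9:91358058-91365810 and Zic4 spans chr9:91362413-91389348. These spans overlap by 3398 bases, of which 60 bases are exonic in both genes. Zic5 spans chr14:122456795-122465677 and Zic2 spans chr14:122475435-122479852. The starts of Zic5 and Zic2 are 9726 bases apart in RefSeq. Between them lies 2610035F20Rik, an annotated long non-coding RNA gene on the minus strand (chr14:122470284-122475199), whose start is 185 bases from that of Zic2 and whose exons share 0 bases with those of Zic2. Whether counting used strand is not given in the sources used here, so reads in the overlap of Zic1 and Zic4 are uncertain. The longest identical run shared by transcripts of any 2 members was 42 bases, between Zic1 and Zic4, and that between Zic2 and Zic5 was 26 bases.

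The sequence just upstream of the start is shown for one gene of each pair, Zic1 and Zic5, which differed in level and in direction. RefSeq promoter windows (GRCm38.p6, 250 bases upstream) were found for 3 members: Zic1, Zic4 and Zic5. Each is cut back here to the unbroken run of bases outside GENCODE exons, counted from the end farthest from the start. This leaves none for Zic4, whose farthest base is exonic. Capitals mark matches, on either strand, to CCAAT and to the GC box GGGCGG.
Zic1, chr9:91365811-91366018, minus strand: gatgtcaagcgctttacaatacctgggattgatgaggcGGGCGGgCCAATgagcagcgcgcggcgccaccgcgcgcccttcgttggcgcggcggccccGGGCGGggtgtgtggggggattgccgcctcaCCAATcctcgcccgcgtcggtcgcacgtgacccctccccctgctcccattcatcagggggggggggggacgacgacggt
Zic5, chr14:122465678-122465908, minus strand: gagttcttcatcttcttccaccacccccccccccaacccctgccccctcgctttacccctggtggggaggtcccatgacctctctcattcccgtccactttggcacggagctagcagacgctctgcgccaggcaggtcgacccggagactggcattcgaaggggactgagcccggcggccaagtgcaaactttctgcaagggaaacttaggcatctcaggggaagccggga
The Zic1 stretch held 2 matches to CCAAT and 2 to GGGCGG, and the Zic5 stretch held 0 of either. Among 32851 RefSeq windows of 250 bases, 33.8% held CCAAT and 32.7% held GGGCGG. No stretch matched TATAAA (12.4% of windows), the Gli-type site GACCACCCA (0.2%) or CAGCAGG (8.4%), a Zic-type site, on either strand. The G and C content of the 250 bases was 66% for Zic1, 62.4% for Zic5 and 44.4% for Zic4, against a median of 52.4% over all windows. The match counts describe these letters only.

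Library totals ranged from 30080925 to 33257383 counts, and 14610 genes passed the default expression filter of edgeR. Values below are counts scaled to a common library total by the TMM method (CPM), and a floor of 3 counts equals 0.0899 to 0.102 CPM. A gene counted as called when the quasi-likelihood F test of edgeR, adjusted by Benjamini-Hochberg over all tested genes, gave a p-value under 0.05. This called 22.9% of the tested genes, made up of 10.7% higher and 12.3% lower in anterior cells. The labelled tissue was checked against limb mesenchyme markers. Of 7 such markers, 3 were called higher, 1 lower and 3 not called, and Pitx1 and Tbx4 had at least 6968 counts in every library.

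Zic2 was the most abundant member and was higher in anterior cells. It had 9593 and 9280 counts in the anterior replicates, against 2635 and 3196 in the central replicates. Both anterior libraries were far above both central ones, with no overlap, as was the case for 63.5% of all tested genes. In CPM these counts were 302 ± 20.3 and 92.1 ± 9.32 (SD, n = 2 each). The log2 fold change was 1.71 ± 0.09 (SE), or 3.28-fold, with an edgeR adjusted p-value of 5.23e-06. In these sorted populations, fewer cells with the transcript and less transcript per cell cannot be told apart.

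Zic5, the partner of Zic2 on chromosome 14, was higher in anterior cells by nearly the same factor. It had 2070 and 2093 counts in the anterior replicates, against 590 and 761 in the central replicates, again without overlap. Its means were 66.7 ± 6.56 and 21.3 ± 3.08 CPM (SD, n = 2), which is 3.12-fold. On the log2 scale the difference was 1.64 ± 0.12 (SE; edgeR adjusted p-value 3.42e-05). Ranked from the highest log2 fold change, Zic2 was at 226 and Zic5 at 247 of the 14610 tested genes. For scale, 1.49% of the tested genes were called with an anterior level at least 3-fold above the central one.

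**Figure D1:**
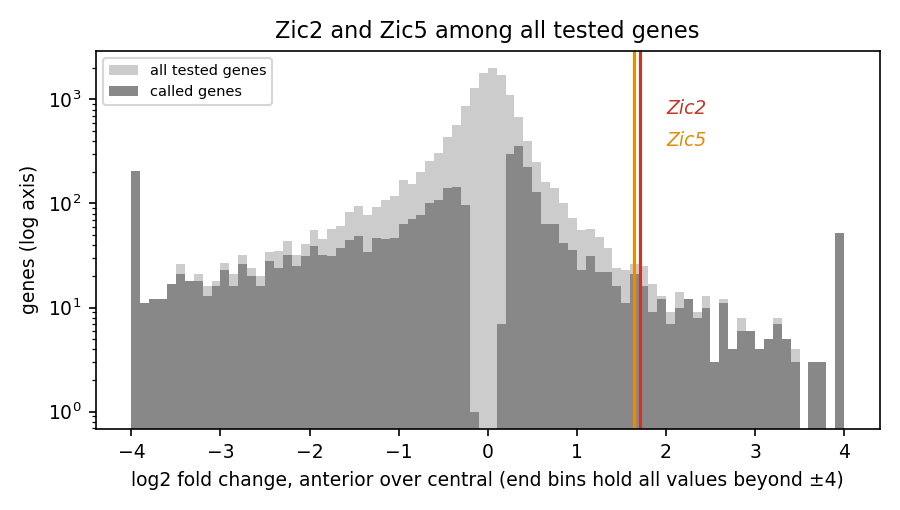
Number of tested genes (log axis) by log2 fold change of anterior over central cells, for all tested genes (light) and for called genes (dark). The vertical lines at 1.71 and 1.64 mark Zic2 and Zic5, which lie side by side in the upper tail.

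Zic1 showed the opposite difference at a much lower level. Neither anterior library had a count (0 and 0), whereas the central libraries had 54 and 35. The central libraries were at 1.75 and 1.08 CPM, and the floor of 3 counts equals 0.0899 and 0.102 CPM in the anterior ones. Taking that floor in each anterior library and the central mean as measured, Zic1 was at least 14.7-fold lower in anterior cells (edgeR adjusted p-value 0.00216). The floor treats counts as independent, although 72.8% to 75.6% of counts between 1 and 10 were even. The bound may therefore be too high. Zic1 passed the expression filter through the central libraries alone, so a tested Zic1 had to differ.

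Zic4, which shares its start region with Zic1, was at the limit of detection. It had 4 and 0 counts in the anterior replicates, against 2 and 0 in the central replicates. Each group thus had one library at 0, and the values overlapped. Zic4 did not pass the filter, and the ratio of anterior to central counts was 2.02 with a 95% exact interval of 0.289 to 22.3, which covers counting error only. That interval treats counts as independent, although small counts were mostly even, so it may be too narrow. No difference was detectable at this depth.

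**Figure D2:**
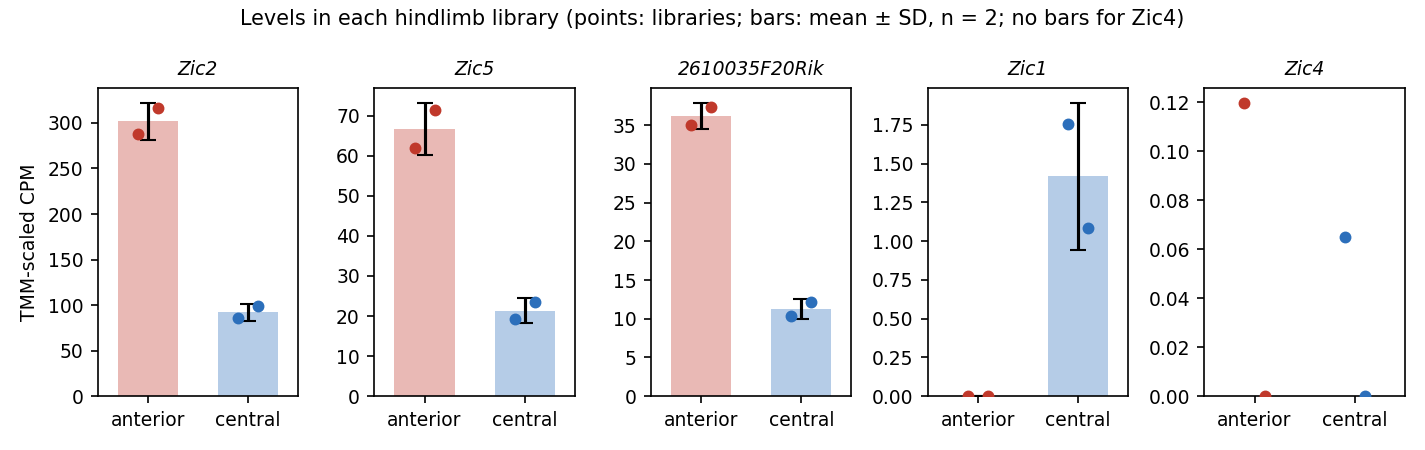
TMM-scaled CPM of the Zic genes and of 2610035F20Rik in each library, 1 panel per gene with its own axis. Points are libraries and bars are means ± SD over 2 libraries. The anterior libraries are above the central ones for Zic2, Zic5 and 2610035F20Rik, Zic1 is at 0 in both anterior libraries, and Zic4 is at 0 in 1 library of each group.

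Levels of different genes were compared per kilobase of GENCODE exon. In anterior cells Zic2 was at 105 ± 7.05 CPM per kilobase and Zic5 at 13.6 ± 1.34 (SD, n = 2), while Zic1 was at 0 and Zic4 at 0.0058 ± 0.0082, which do not differ beyond their spread. In central cells Zic2 was at 32 ± 3.23 CPM per kilobase, Zic5 at 4.36 ± 0.629, Zic1 at 0.249 ± 0.0835 and Zic4 at 0.0031 ± 0.0044. In central cells the order was therefore Zic2, Zic5, Zic1, Zic4, with gaps wider than the spread between libraries. The mean level per kilobase over the 4 libraries put Zic2 at percentile 96.2 of the tested genes, Zic5 at 61.5 and Zic1 at 4.25.

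Zic2 and Zic5 together made up nearly all counts of the 4 genes in both populations. Zic2 took 82.2% and 81.6% of them in the anterior replicates, against 80.3% and 80.1% in the central replicates. The share of Zic5 was 17.7% and 18.4% in the anterior replicates, against 18% and 19.1% in the central replicates. Zic1 reached 1.65% and 0.877% of them in the central libraries.

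The proportions of the chromosome 14 genes to each other overlapped between the populations. The ratio of Zic2 to Zic5 counts was 4.63 and 4.43 in the anterior replicates, against 4.47 and 4.2 in the central replicates. The mean log2 ratio was 0.07 higher in anterior cells, and the groups overlapped. An exact permutation test of 2 against 2 libraries cannot go below a two-sided p of 0.333, so the ratios are given as a description. The non-coding gene between them, 2610035F20Rik, had 1166 and 1097 counts in the anterior replicates, against 319 and 393 in the central replicates. It was called higher in anterior cells, by 1.68 ± 0.12 on the log2 scale (SE; edgeR adjusted p-value 3.17e-05).

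Zic2 counts exceeded those of 2610035F20Rik by a factor of 8.23 and 8.46 in the anterior replicates, against 8.26 and 8.13 in the central replicates. That ratio also overlapped between the groups. By contrast, the ratio of Zic2 to Pcca, the next coding gene downstream, did not overlap: it was 6.23 and 6.06 in the anterior replicates, against 2.64 and 3.03 in the central replicates. Of the ratios examined (5 in all, chosen after the counts were seen), that of Zic5 to 2610035F20Rik overlapped and that of Zic2 to Gli3 did not.

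Coding genes farther out on chromosome 14 differed less than Zic2 and Zic5 or were not called. Within 500 kb on either side of Zic2 and Zic5, a window chosen after the values were seen, RefSeq lists 24 other genes, of which 13 are in the count table and 11 were tested. Of these, 5 were called higher in anterior cells, 0 were called lower and 6 were not called, where 10.7% of all tested genes were called higher. Gm5089, a non-coding gene beside Zic5, had 64 and 64 counts in the anterior replicates, against 12 and 22 in the central replicates. The difference was 1.93 ± 0.48 on the log2 scale (SE; edgeR adjusted p-value 0.0203), a call lost without anterior replicate 2 (adjusted p-value 0.0915) and without central replicate 1 (0.0713). Gm5089 overlaps Clybl, so the counts of these genes are uncertain.

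Pcca, which encodes the alpha subunit of propionyl-CoA carboxylase, measured 49.2 ± 4.28 CPM in anterior and 32.5 ± 0.0869 in central cells (SD, n = 2). Its log2 fold change was 0.60 ± 0.10 (SE), well under that of Zic2, with an edgeR adjusted p-value of 0.00264. Clybl, encoding a mitochondrial lyase, differed by 0.60 ± 0.16 on the log2 scale (SE; edgeR adjusted p-value 0.0303) and was not called without anterior replicate 2 (0.195) or central replicate 2 (0.0689). Tmtc4 was called at a log2 fold change of 0.30 (edgeR adjusted p-value 0.0448), but the call was lost with library size alone (0.068), with the DESeq2 Wald test (0.0611) and without anterior replicate 1 (0.0835), anterior replicate 2 (0.239) or central replicate 2 (0.121). The genes not called had log2 fold changes between -0.38 and 0.06 (smallest edgeR adjusted p-value 0.103). On chromosome 9, 0 of the 10 other RefSeq genes within 500 kb of Zic1 and Zic4 are in the count table.

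**Figure D3:**
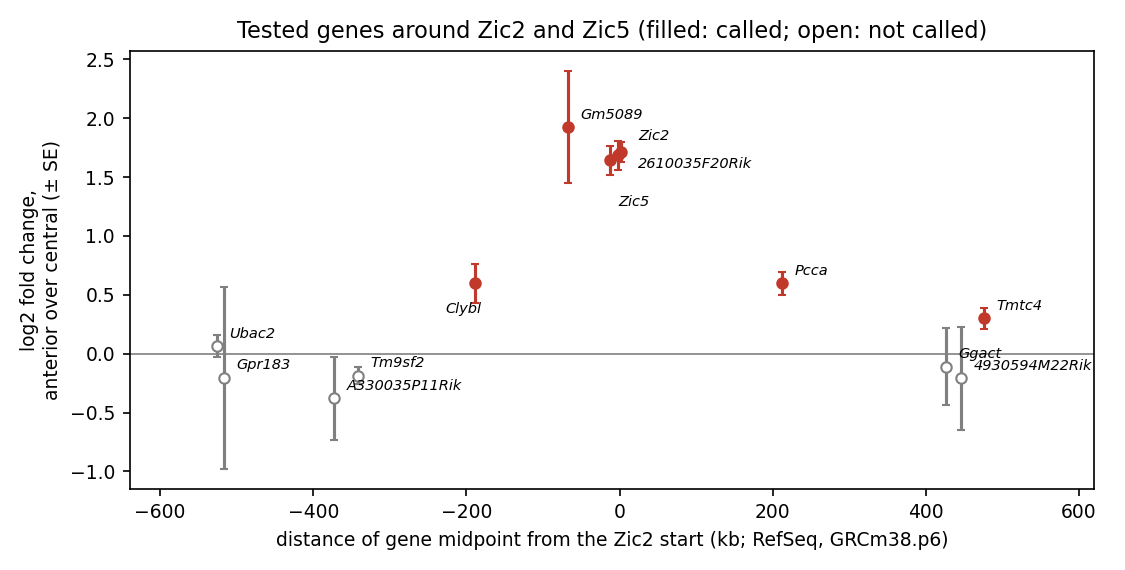
Log2 fold change of anterior over central cells (± SE) for the tested genes within 500 kb of Zic2 and Zic5, by distance of the gene's midpoint from the Zic2 start in kb. Filled points were called and open points were not. Zic2, Zic5, 2610035F20Rik and Gm5089 lie between 1.64 and 1.93, and Pcca and Clybl lie at 0.60.

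The same pattern over the 4 libraries was looked for among all tested genes with a mean of at least 1 CPM. Likeness was the root mean square difference of log2 CPM after centring each gene on its own mean, and it is a description without a test. The closest gene to Zic2 was its neighbour 2610035F20Rik, at 0.022 on the log2 scale, followed by Lor (0.036), which encodes a protein of the cornified skin layer, and Lmo1 (0.043), which encodes a LIM-only transcriptional cofactor. The closest to Zic5 were 2610035F20Rik (0.048), Zic2 (0.051) and Lor (0.057). Lmo1 measured 44.3 ± 3.09 CPM in anterior and 14 ± 0.805 in central cells (SD, n = 2), and Lor measured 8.25 ± 0.341 and 2.46 ± 0.361.

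The closest to Zic1 were Gsc (0.144), Smoc2 (0.148) and Meox1 (0.155). Gsc encodes a homeobox factor, Smoc2 a secreted matrix-associated protein and Meox1 a homeobox factor of the somites. Their central levels were 44.9 ± 12.5, 19.8 ± 7.73 and 19.9 ± 4.26 CPM, and their anterior levels 2.15 ± 0.330, 0.637 ± 0.0325 and 0.791 ± 0.154 (SD, n = 2). The centred profile of Zic1 rests on libraries at 0 and depends on the prior count that edgeR adds.

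The Gli and Glis genes, whose proteins carry zinc fingers related to those of the Zic proteins, did not move as a group. Of the 6 genes, 2 were called higher and 4 lower in anterior cells, where 10.7% of all tested genes were called higher and 12.3% lower (median log2 fold change -0.45, against -0.01 over all tested genes). Gli3, whose protein is the main repressor of hedgehog target genes in limb buds, measured 346 ± 45.8 CPM against 198 ± 1.39 (SD, n = 2). Its log2 fold change of 0.81 ± 0.09 (SE, edgeR adjusted p-value 0.00034) was below that of Zic2, and the ratio of Zic2 to Gli3 counts was 0.916 and 0.836 in the anterior replicates, against 0.435 and 0.497 in the central replicates.

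Gli2, an activator of the pathway, was lower in anterior cells, with means of 80 ± 4.25 and 129 ± 4.33 CPM (SD, n = 2). Its log2 fold change was -0.69 ± 0.07 (SE; edgeR adjusted p-value 0.000293). Gli1, itself a hedgehog target, was at 85.5 ± 5.04 and 115 ± 14.3 CPM (edgeR adjusted p-value 0.0135), a call lost without anterior replicate 2 (0.0788). Glis2 and Glis3 had log2 fold changes of -0.47 and -1.04 (edgeR adjusted p-values 0.0099 and 0.00611). Glis1 had 163 and 154 counts in the anterior replicates, against 86 and 61 in the central replicates. Its log2 fold change was 1.12 ± 0.30 (SE, edgeR adjusted p-value 0.0283), and the call was lost without anterior replicate 1 (0.055), anterior replicate 2 (0.0948) or central replicate 2 (0.0747).

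**Figure D4:**
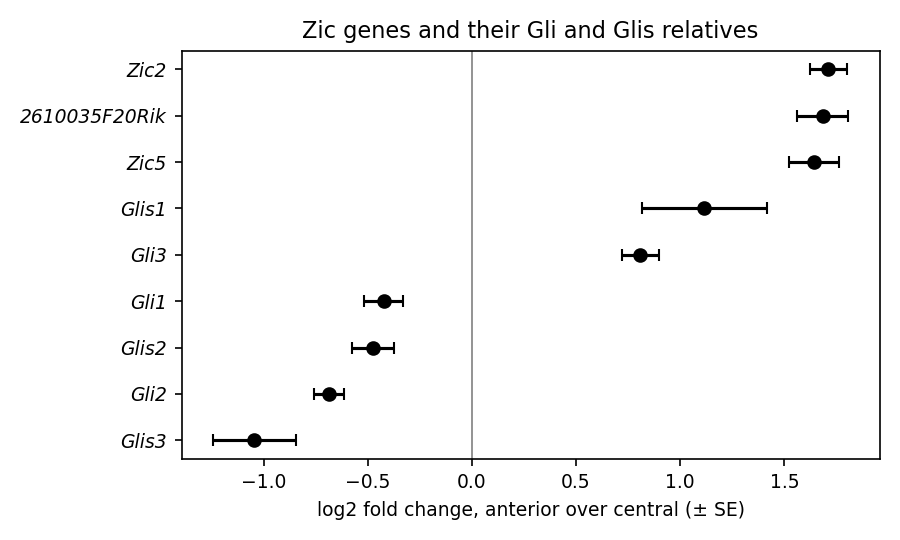
Log2 fold change of anterior over central cells with its SE for Zic2, Zic5, the non-coding neighbour 2610035F20Rik and the Gli and Glis genes. The chromosome 14 genes lie together between 1.64 and 1.71, above Glis1 at 1.12 and Gli3 at 0.81, and the other 4 genes lie below 0. Zic1 is left out because its fold is known only as a bound.

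Genes for proteins reported to bind Zic proteins were called about as often as tested genes in general, of which 22.9% were called. Of 8 listed, 0 were called higher, 2 were called lower and 6 were not called (median log2 fold change -0.03, against -0.01 over all tested genes). The lower ones were Tcf7l2, a transcription factor of the Wnt pathway, at -0.51 ± 0.10 (SE), and Xrcc5, a subunit of the Ku DNA repair complex, at -0.40 ± 0.07 (SE). Their edgeR adjusted p-values were 0.00582 and 0.00434. Mdfi, which encodes a protein that holds transcription factors in the cytoplasm, was at 47.2 ± 14.2 and 71.7 ± 14.9 CPM (edgeR adjusted p-value 0.0593).

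Genes reported in other tissues as regulated by Zic proteins went in both directions. Of 10 listed, 5 were tested, and 2 of these were called higher and 3 lower in anterior cells. Over all tested genes, 10.7% were called higher and 12.3% lower. Snai2, a regulator of mesenchymal cell movement, had 1910 and 1874 counts in the anterior replicates, against 811 and 651 in the central replicates (difference of 1.38 ± 0.13 on the log2 scale, SE; edgeR adjusted p-value 0.000143). Apoe, encoding a lipid carrier, was higher at 24.1 ± 2.17 against 16 ± 1.70 CPM (SD, n = 2; edgeR adjusted p-value 0.0132). Ephb1, encoding a guidance receptor, was lower, at 0.867 ± 0.124 against 4.25 ± 0.231 CPM (edgeR adjusted p-value 0.00186).

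Pax3 and Myf5, which mark somite-derived muscle precursors, were also lower. Pax3 had 12 and 8 counts in the anterior replicates, against 512 and 674 in the central replicates. Myf5 had 3 and 0 against 251 and 262, at least 84.5-fold lower in anterior cells by the same floor of 3 counts and with the same limit. Myf5 passed the filter through the central libraries alone, and Pax3 also needed them, so both calls were close to fixed in advance. Drd1, Wnt1 and Nanog were at 0 in every library, and Atoh1 and Foxd3 had at most 8 counts in any.

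Markers of cell types in which Zic genes are known to be active were read beside the members. Of 10 dorsal neural tube markers 3 were tested. Wnt1 and Olig3 were at 0 in every library, and Sox1, Sox2 and Pax6 had at most 14 counts in any. The summed level of the list was 2.55 and 6.37 CPM in the anterior replicates, against 3.15 and 2.38 in the central replicates. Lmx1a made up nearly all of the anterior sums, at 2.34 and 5.83 CPM. Pax7, which also counts among the somite markers below, was at 1.59 and 0.433 CPM in the central replicates. The sums thus rest on different genes in the 2 groups. The part of dorsal neural tube cells in the Zic values was not tested. Lmx1a was called higher in anterior cells, with 78 and 171 counts against 8 and 12 (edgeR adjusted p-value 0.00216), Pax7 was called lower and Gdf7 was not called. Lmx1a needed the anterior libraries to pass the filter, which brought its call close to fixed in advance. Neural crest and Schwann markers summed to 49.1 and 33.8 CPM in the anterior replicates, against 35 and 20.8 in the central replicates, with Ngfr called higher and Sox10 and Erbb3 called lower. Ngfr made up nearly all of the anterior sums, at 47.7 and 33 CPM. Erbb3 was at 1.08 and 0.682 CPM in the anterior replicates, against 15.7 and 10.7 in the central replicates. Sox10 was at 0 in both anterior libraries, so its call was close to fixed in advance, as was that of Pax7.

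Markers of somites, muscle and surface ectoderm were mostly called lower in anterior cells, as Zic1 was. Over all tested genes, 12.3% were called lower. Of 8 somite markers, 7 were tested and 6 were called lower in anterior cells, 0 were called higher and 1 was not called. Their summed level was 21.2 and 18 CPM in the anterior replicates, against 194 and 188 in the central replicates. Most of it was Meox2, at 13.9 and 10.7 CPM against 124 and 129. All 6 muscle markers, which share Pax3 with the somite list, were called lower (summed 4.17 and 2.35 against 141 and 142 CPM). Myog and the somite marker Pax7 were at 0 in both anterior libraries, and Myf5 had 3 and 0 counts there. Myog, Pax7, Myf5, Lbx1 and Myod1 passed the filter through the central libraries alone, so their calls were close to fixed in advance. Lbx1 and Myod1 had at most 6 counts in either anterior library. Pax3, at 12 and 8 counts there, also needed the central libraries to pass, so its call has the same limit. Surface ectoderm markers were called lower in 9 of 9 tested, with sums of 7.32 and 7.91 CPM against 52.7 and 185. Zic1 had 54 and 35 counts in the central replicates, and 2 libraries at such low counts cannot relate its level to any of these sums. The part of these cells in the Zic1 difference was not tested.

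Red cell markers were higher in anterior cells in 6 of 6, with sums of 3287 and 8382 CPM against 5 and 7.91. The higher sum was that of anterior replicate 2, and Zic2 was at 288 and 316 CPM in the anterior replicates. With 2 libraries, the level of Zic2 cannot be related to this sum. Macrophage markers were called higher in 2 of 5 tested, neuron markers were called lower in 2 of 6, endothelial markers were called lower in 4 of 6, and the rest of these lists were not called. Over all tested genes 10.7% were called higher and 12.3% lower, and lists this short are given as counts only. Distal limb genes were called higher in 13 of 13 (median log2 fold change 1.48), a list whose direction in these libraries was known when it was chosen. Its summed level was 4445 and 4279 CPM in the anterior replicates, against 1489 and 1311 in the central replicates. Of 6 proximal limb genes, 1 was called higher and 4 lower in anterior cells. Irx5, at 28 and 2 counts in the anterior replicates, needed the central libraries to pass the filter, as did the neuron marker Nefl, at 10 and 14. The part of these differences in the Zic2 and Zic5 values was not tested.

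**Figure D5:**
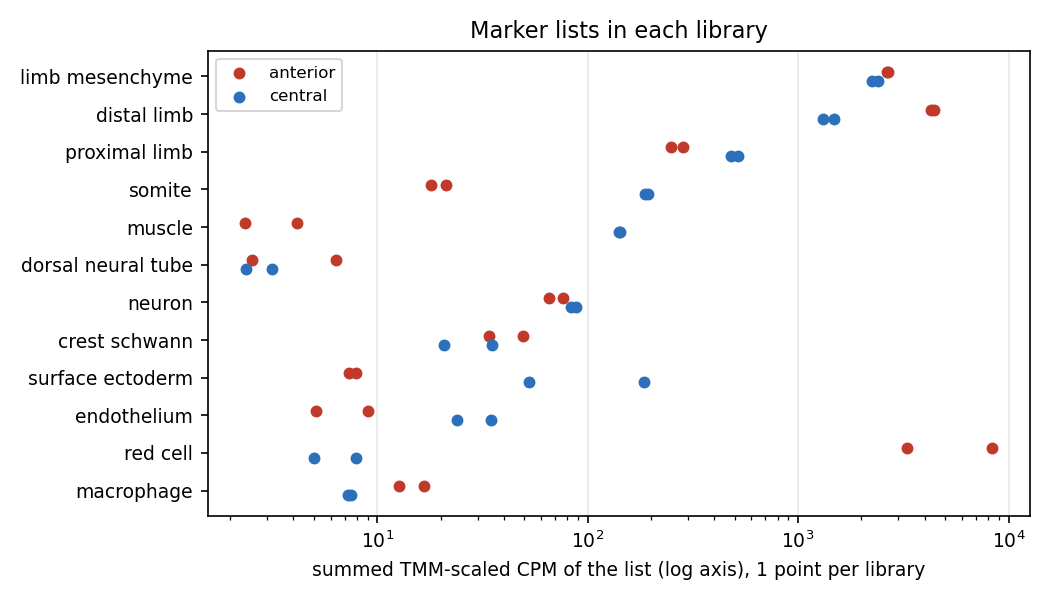
Summed TMM-scaled CPM of each marker list (log axis), 1 point per library. Somite, muscle, ectoderm and endothelial sums are lower in both anterior libraries, red cell and distal limb sums are higher, and the dorsal neural tube sum is at most 6.37 CPM in any library, with overlapping groups.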

How the data were processed

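The authors deposited whole-number read counts per gene symbol for the 4 libraries, not normalized. The submitters' processing notes name STAR 2.7.9a, HTSeq and DESeq2 with mm10, and the annotation, strand setting and filters are not given in the sources used here. Even numbers made up 72.8% to 75.6% of counts between 1 and 10, so a fit on halved counts was also run. The counts were fitted with edgeR 4.0.16 in R 4.3.3 (default filterByExpr, TMM, quasi-likelihood F test, Benjamini-Hochberg over 14610 genes, 2 residual degrees of freedom). SE is the absolute log2 fold change divided by the square root of F. On counts simulated for this comparison over 14610 genes, 69% of genes changed 2-fold and 87% of those changed 4-fold were recovered, and 7.14% of calls were false. The simulation changed only 100 genes at each fold, against 3351 genes called in the data, so these rates may not carry over. Alternatives used DESeq2 1.42.0 and limma 3.58.1. Gene names were matched to RefSeq GRCm38.p6 and GENCODE M21 by symbol. Named genes were the members, 2 RefSeq neighbours on each side, the listed genes and the 3 genes closest in pattern to each tested member. The members and lists were chosen with earlier results of these data known. Not every member of the family or of the lists is reported here. Counts came from 4 columns matched to titles by domain and number.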

Additional observations from a re-analysis of the deposited data

How the results depend on the processing

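Zic2 and Zic5 kept their direction and their call under all 13 alternatives: DESeq2 size factors, library size alone, both other count filters, the robust prior, the replicate block, halved counts, DESeq2, limma-voom and leaving out each library. Their log2 fold changes ranged from 1.61 to 1.82 and from 1.51 to 1.80, with adjusted p-values up to 9.71e-06 and 5.46e-05. Zic1, at 0 in both anterior libraries, was tested in 12 alternatives, where its call was close to fixed in advance, and a mean count of at least 50 left it out. Zic4 was tested only when genes with at least 1 count in any library were kept (edgeR adjusted p-value 0.85). With the replicate block, Zic2 was at 1.71 and 3586 genes were called instead of 3351, while Tmtc4 was no longer called (edgeR adjusted p-value 0.0514, its alternatives spanning 0.0284 to 0.239) and no other call reported above for a chromosome 14 neighbour, Gli or Glis gene changed. The numbers alone link the libraries, and replicate differences correlated at 0.046 across genes, so they were not taken as pairs. The cause was not tested. The 5 called neighbours and the Gli and Glis genes were recomputed as alternatives added after the data were seen, and none of them changed direction. Neighbours that were not called were not recomputed. Leaving out 1 library gave 2009 to 3697 called genes, the fewest without anterior replicate 2. Such fits assume that the lone library varies like the other group. Depth limits Zic1 in anterior cells and Zic4 throughout.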
